A study of Homo sapiens with 5 samples.

Results

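The 10 transcripts described here are ATF4, which encodes the central transcription factor of the integrated stress response, and 9 genes widely used as its targets or readouts (DDIT3, DDIT4, TRIB3, ASNS, PSAT1, PHGDH, CHAC1, SESN2 and PPP1R15A). They were taken by symbol, as a pathway set, from a table of 18512 gene symbols, and each had 1 row. The cells were BT474, an established HER2-amplified breast cancer line of luminal type, and polyadenylated RNA was sequenced from 2 groups. Persister cells, in 3 libraries, had survived lapatinib, which blocks the kinases HER2 and EGFR, given at 2 µM for 9 days and renewed every 3 days. Parental cells were grown at the same time in the same solvent (0.01% DMSO) without lapatinib and gave 2 libraries. The submitters describe the libraries as biological replicates of the one line.

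In the integrated stress response, kinases that sense amino acid shortage, misfolded protein in the endoplasmic reticulum, heme shortage or viral RNA phosphorylate the translation initiation factor eIF2. Protein synthesis as a whole then falls, while the ATF4 mRNA, whose 5′ leader holds upstream reading frames, is translated more. ATF4 pairs with C/EBP and other bZIP proteins on composite elements and switches on genes for amino acid uptake and synthesis, tRNA charging, redox balance and, under lasting stress, cell death. RNA levels report on these targets but not on the ATF4 protein or on eIF2 phosphorylation, neither of which was measured.

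All values are the authors' own FPKM (sequenced fragments corrected for the length of the transcript and the size of the library), 1 per gene and group, with no SD or n. With no counts and no values for single libraries, the depth, the replicate spread and any overlap between libraries are unknown. A gene is called higher or lower in persister cells where the q-value (adjusted p) in the authors' deposited table was under 0.05, and a difference is the log2(FPKM + 1) value of persister cells minus that of parental cells. Of the 13617 genes covered by their test, 69.9% were called, 30.9% higher and 39% lower, so most of the table was called. The median difference of the 10291 genes with at least 1 FPKM in both groups was -0.11, and the sum of FPKM was 260213 in persister and 333324 in parental cells. When both groups were scaled to the same sum, 54.8% of all calls were higher, against 44.2% as deposited. Among luminal markers 8 of 9 reached 1 FPKM in both groups, 6 of them called lower and 2 higher. Their summed level was 1827 FPKM in persister cells and 2414 FPKM in parental cells. ERBB2, the amplified gene itself, was listed at 0 in both. Of the fibroblast, immune and endothelial markers, 5 of 6, 4 of 6 and 4 of 4 stayed under 1 FPKM in both groups, with summed levels of 8.74, 6.05 and 0.136 FPKM in persister cells against 13.5, 7.06 and 1.10 FPKM in parental cells. Fewer cells of a state and less RNA per cell cannot be told apart in bulk RNA.

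All 10 transcripts were called, where 69.9% of tested genes were, but they went in opposite directions. Those of DDIT4, PPP1R15A, DDIT3 and SESN2 rose in persister cells, and those of PSAT1, TRIB3, PHGDH, ASNS, CHAC1 and ATF4 itself fell, although ATF4 was higher once both groups were scaled to the same FPKM sum. The 4 rises make 40% of the set, beside 30.9% of all tested genes called higher, and the 6 falls make 60%, beside 39% called lower. Among the 10948 tested genes with at least 1 FPKM in either group, 28.8% were called higher and 44.2% lower. The 10 members and 103 of the 106 tested genes of the lists below reach that level. The median difference over the 10 was -0.40, against -0.04 over all tested genes. It was -0.11 over genes with at least 1 FPKM in both groups. The largest rise was 1.24 on the log2(FPKM + 1) scale and the largest fall -1.19. Calls that also reached a difference of at least 1 numbered 1 higher and 3 lower, where 2.98% and 6.01% of all tested genes did so.

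**Figure D1:**
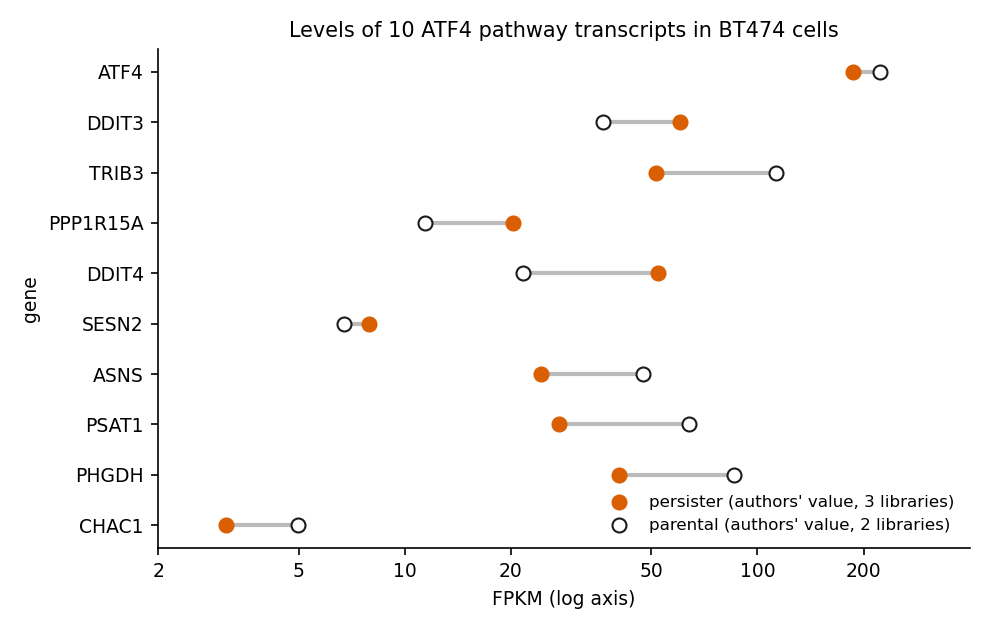
Authors' FPKM of each gene in persister cells (filled orange) and parental cells (open), on a log axis, with a grey line joining the groups; there are no values per library. DDIT3, PPP1R15A, DDIT4 and SESN2 lie further right in persister cells, by 1.17 to 2.42 times, and the other 6 lie further left, ATF4 by a margin that turns to a rise with equal FPKM sums.

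ATF4 binds with C/EBP partners to a composite element (CARE), searched here as TGATGNAA on both strands in the 250 bases before each annotated RefSeq start (GRCh38.p14). All 10 genes had a promoter in the RefSeq table, and a gene with several annotated starts had a window for each. A match was held by 2 of the genes, ASNS 68 bases before 1 of its 2 starts and CHAC1 209 bases before its start. The other ASNS window held none. Among tested genes with a promoter, 2.55% held one, as did 2.35% of those called lower and 2.58% of those called higher. A CRE, searched as TGACGTCA, which reads the same on both strands, was found only in PPP1R15A among the 10, 58 bases before the start, and in 3.32% of tested genes. The FOXO element GTAAACA, on both strands, was in none of the 10 and in 3.04% of tested genes. The promoters of the 3 genes with a match are shown to place these letters before genes whose values are given here. The CRE was in 3.59% of genes called lower and 3.02% of those called higher. Each is given 5′ to 3′ on the gene's strand with the matched letters in capitals, ASNS at chr7:97872409-97872658 (minus strand), CHAC1 at chr15:40953221-40953470 (plus strand) and PPP1R15A at chr19:48872171-48872420 (plus strand).
ASNS: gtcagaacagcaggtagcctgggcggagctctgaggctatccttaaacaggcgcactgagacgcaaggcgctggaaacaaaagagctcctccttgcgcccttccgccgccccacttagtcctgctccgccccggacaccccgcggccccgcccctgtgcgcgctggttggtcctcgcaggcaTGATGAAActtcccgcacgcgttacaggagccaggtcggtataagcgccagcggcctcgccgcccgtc
CHAC1: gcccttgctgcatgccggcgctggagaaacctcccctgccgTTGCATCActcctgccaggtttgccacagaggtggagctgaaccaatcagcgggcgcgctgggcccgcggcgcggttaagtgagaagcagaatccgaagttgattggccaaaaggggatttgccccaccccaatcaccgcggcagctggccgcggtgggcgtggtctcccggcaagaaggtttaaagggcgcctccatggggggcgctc
PPP1R15A: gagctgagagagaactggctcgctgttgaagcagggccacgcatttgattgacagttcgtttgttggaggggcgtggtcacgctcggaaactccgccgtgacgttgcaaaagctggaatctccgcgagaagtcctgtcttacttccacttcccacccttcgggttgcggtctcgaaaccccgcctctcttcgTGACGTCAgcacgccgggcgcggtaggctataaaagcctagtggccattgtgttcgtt
The match in CHAC1 lies on the opposite strand, so it is printed as the reverse complement. No match says only that these letters are not in this window, and some known elements of other members lie outside it.

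ATF4 was by far the most abundant of the 10 transcripts per unit length and moved little. It stood at 186 FPKM in persister cells and 223 FPKM in parental cells, above 98.8% and 98.5% of tested genes. Its ratio of persister to parental FPKM was 0.837 and its difference -0.25 (q = 3.12e-04 in the authors' deposited table). This direction depends on scaling: the difference was -0.14 relative to the median gene, -0.09 with equal upper quartiles, and 0.10 with equal FPKM sums. Of all tested genes, 33.2% had a lower difference. Reads of ATF4 could be shared with the 4 pseudogene copies annotated by name in GENCODE 29 (ATF4P1 to ATF4P4).

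The bZIP factor and pseudokinase that follow ATF4 under stress moved apart. DDIT3 encodes CHOP, a C/EBP-family factor linked to cell death under lasting endoplasmic reticulum stress. It was at 60.2 FPKM in persister cells and 36.5 FPKM in parental cells, a ratio of 1.65 and a difference of 0.71 (q = 1.69e-12 in the authors' deposited table), exceeded by 6.62% of tested genes. TRIB3, a pseudokinase that is induced by ATF4 and CHOP and restrains both ATF4 and AKT, was at 51.5 FPKM in persister cells and 113 FPKM in parental cells. Its ratio was 0.457 and its difference -1.12 (q listed at 0 in the authors' deposited table), and 4.69% of tested genes had a lower one. The ratio of DDIT3 to TRIB3 FPKM was therefore 1.17 in persister cells and 0.323 in parental cells. This ratio between genes does not depend on how the groups are scaled to each other. The libraries did not keep strand, and MARS, the methionyl-tRNA synthetase gene on the opposite strand, covers 27.2% of the exonic bases of DDIT3 in GENCODE 29. MARS itself was lower, at 49.8 FPKM in persister cells and 76.8 FPKM in parental cells. The part of MARS or of 2 smaller overlaps (AC022506.1 at 8.03% and MBD6 at 4.44% of the bases) in the DDIT3 value was not tested.

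The phosphatase subunit that ends the response rose. PPP1R15A (GADD34) brings protein phosphatase 1 to eIF2 and removes the phosphate, and its expression is induced by stress, unlike that of its constitutive relative PPP1R15B. PPP1R15A stood at 20.2 FPKM in persister cells and 11.4 FPKM in parental cells. Its ratio was 1.77 and its difference 0.78 (q listed at 0 in the authors' deposited table), which 5.49% of tested genes exceeded. PPP1R15B was at 15.98 FPKM in persister cells and 16.7 FPKM in parental cells and was not called (q = 0.483 in the authors' deposited table). The inducible form was thus at 1.27 times the constitutive one in persister cells and at 0.684 times in parental cells.

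The phosphatase's catalytic subunits were called lower, PPP1CB by little. PPP1CA was at 112 FPKM in persister cells and 214 FPKM in parental cells, with a q listed at 0 in the authors' deposited table. PPP1CC was at 60.1 FPKM in persister cells and 106 FPKM in parental cells (q = 4.33e-10 in the authors' deposited table). PPP1CB was at 42.8 FPKM in persister cells and 47.7 FPKM in parental cells (q = 0.0460 in the authors' deposited table), a ratio of 0.896, and its direction turns with equal FPKM sums. The ratio of PPP1R15A to PPP1CA was 0.181 in persister cells and 0.0533 in parental cells.

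Both members that restrain the growth kinase mTORC1 rose, by unequal amounts. DDIT4 (REDD1), which acts through the TSC complex and is also induced by hypoxia and glucocorticoids, showed the largest rise of the 10. It reached 52.4 FPKM in persister cells, against 21.6 FPKM in parental cells, a ratio of 2.42 and a difference of 1.24 (q listed at 0 in the authors' deposited table) that 1.73% of tested genes exceeded. Its antisense gene DDIT4-AS1, which has no row in the table used here, covers 41.2% of its exonic bases in GENCODE 29, and its part in the value was not tested. The paralog DDIT4L was listed at 0 FPKM in persister cells and 0.00154 FPKM in parental cells. SESN2, a leucine sensor that holds back mTORC1 through GATOR2, was at 7.90 FPKM in persister cells and 6.75 FPKM in parental cells. Its ratio was 1.17 and its difference 0.20 (q = 0.0217 in the authors' deposited table), a small change that 26.9% of tested genes exceeded.

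Of the other sestrins, SESN3 was called higher at a low level, and no direction is read for SESN1. SESN1, better known as a p53 and FOXO target, was at 11.9 FPKM in persister cells and 13.9 FPKM in parental cells and was not called (q = 0.0504 in the authors' deposited table). SESN3, a FOXO target, was at only 0.411 FPKM in persister cells and 0.201 FPKM in parental cells and was called higher (q = 1.20e-10 in the authors' deposited table).

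The enzymes that make serine and asparagine, among them the CARE carrier ASNS, fell together and by similar amounts. PHGDH, which commits the glycolytic intermediate 3-phosphoglycerate to serine, was at 40.5 FPKM in persister cells and 85.6 FPKM in parental cells, a ratio of 0.473. PSAT1, the next enzyme of that pathway, was at 27.4 FPKM in persister cells and 63.8 FPKM in parental cells, a ratio of 0.430 and the largest fall of the 10. ASNS, which makes asparagine from aspartate and glutamine, was at 24.4 FPKM in persister cells and 47.5 FPKM in parental cells, a ratio of 0.513. The differences were -1.06 for PHGDH, -1.19 for PSAT1 and -0.93 for ASNS, each with a q listed at 0 in the authors' deposited table, and 5.25%, 4.08% and 6.92% of tested genes had lower ones. PHGDH and PSAT1 kept nearly the same proportion to each other, 1.48 in persister cells and 1.34 in parental cells. Reads of PSAT1 and of ASNS could each be shared with 4 annotated pseudogene copies. A transcript named AC079781.5 on the same strand shares 44.6% of the exonic bases of ASNS.

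CHAC1, which cleaves glutathione and is among the genes that mark ATF4 activity most directly in other cells, was the scarcest of the 10. It stood at 3.10 FPKM in persister cells and 4.97 FPKM in parental cells, a ratio of 0.624 and a difference of -0.54 (q = 1.31e-07 in the authors' deposited table). Since it was low, the added 1 FPKM understates the change, which was -0.66 with 0.1 added. Its relative CHAC2 fell to 1.61 FPKM in persister cells against 4.29 FPKM in parental cells (q = 9.27e-05 in the authors' deposited table).

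**Figure D2:**
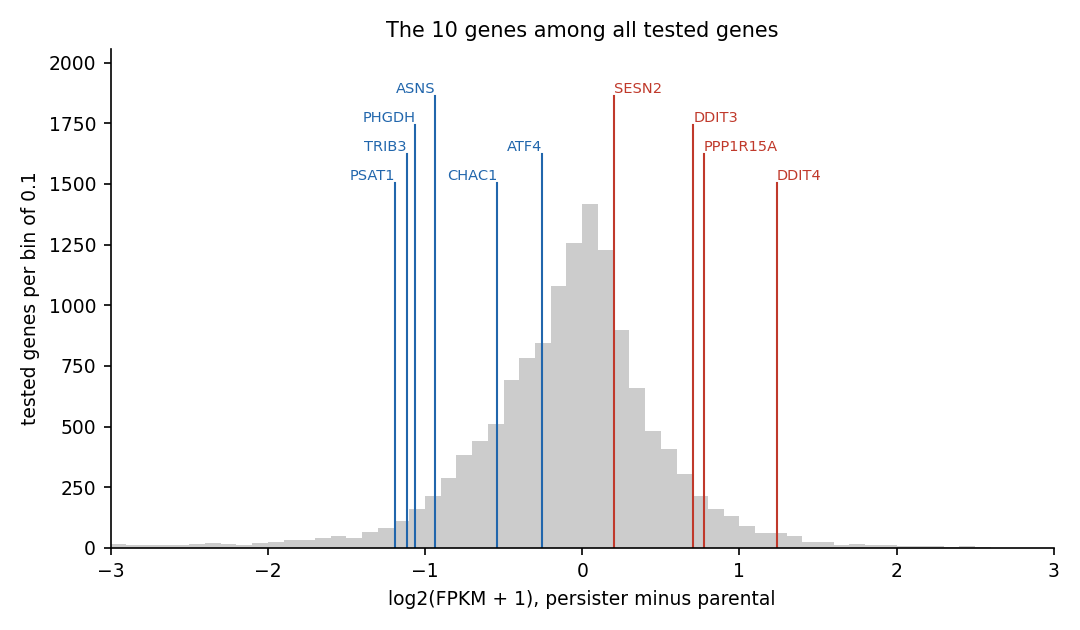
Histogram of the difference in log2(FPKM + 1), persister minus parental, over tested genes in bins of 0.1 (grey, axis limited to 3 on either side), with a line for each of the 10 genes, red where called higher and blue where called lower. PSAT1, TRIB3, PHGDH and ASNS lie between -1.19 and -0.93 in the lower tail, DDIT3, PPP1R15A and DDIT4 between 0.71 and 1.24 in the upper one, and ATF4 (as deposited; above 0 with equal FPKM sums), CHAC1 and SESN2 nearer the centre.

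The order of abundance within the set changed accordingly. In persister cells the order per unit length was ATF4, DDIT3, DDIT4, TRIB3, PHGDH, PSAT1, ASNS, PPP1R15A, SESN2 and CHAC1. In parental cells it was ATF4, TRIB3, PHGDH, PSAT1, ASNS, DDIT3, DDIT4, PPP1R15A, SESN2 and CHAC1. DDIT4 at 52.4 FPKM and TRIB3 at 51.5 FPKM were close neighbours in persister cells. No replicate spread is at hand to say whether such neighbours differ. The summed level of ASNS, PSAT1 and PHGDH was 92.3 FPKM in persister cells and 197 FPKM in parental cells. The summed level of all 10 genes was 474 FPKM in persister cells and 614 FPKM in parental cells.

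Set against ATF4's own transcript, the targets also split. DDIT4 was at 0.281 of the ATF4 level in persister cells and 0.0972 in parental cells, and PPP1R15A at 0.109 in persister cells and 0.0513 in parental cells. PSAT1 was at 0.147 of it in persister cells and 0.287 in parental cells, and TRIB3 at 0.277 in persister cells and 0.507 in parental cells. These are ratios of FPKM within a group, so they hold under any scaling between groups.

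Scaling of the groups left the direction of 9 of the 10 genes as it was. With equal FPKM sums, which moved the median gene to 0.20, the fall of PSAT1 was -0.84, that of TRIB3 -0.76, that of PHGDH -0.71 and that of ASNS -0.59, and the rise of DDIT4 was 1.59.

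**Figure D3:**
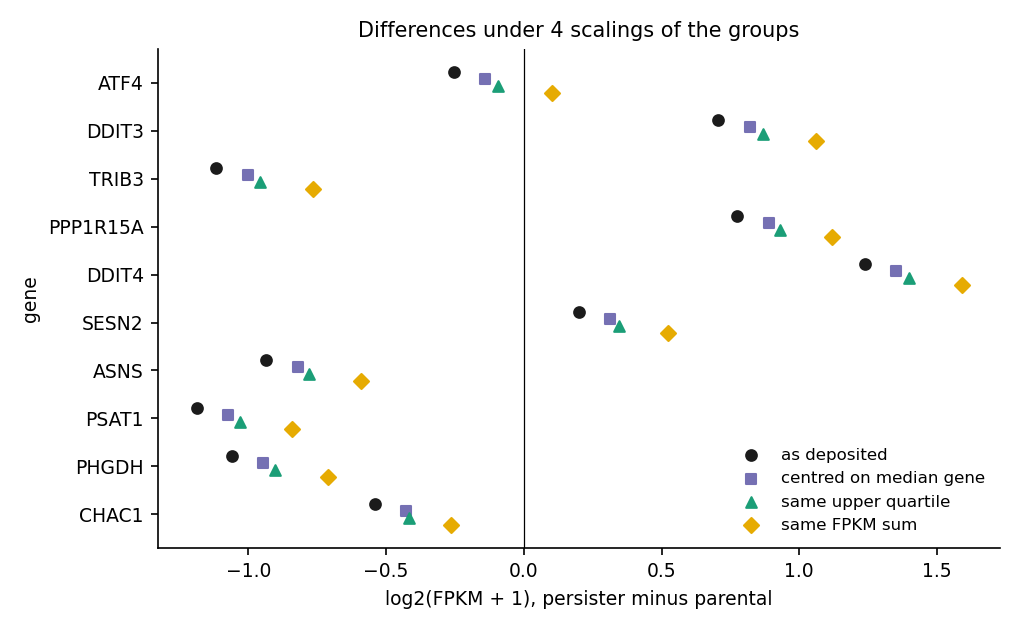
Difference in log2(FPKM + 1), persister minus parental, for each gene with FPKM as deposited (circles), centred on the median gene (squares), with equal upper quartiles (triangles) and with equal FPKM sums (diamonds). ATF4 changes sign, from -0.25 as deposited to 0.10 with equal sums, and the other 9 genes stay on their side of 0.

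Upstream AUG codons, which begin the upstream reading frames of the ATF4 leader, were common in the set. The median leader was also longer, at 308 bases in the members against 198 bases in tested genes. Genes of like leader length were not compared, and the codons were counted without regard to their arrangement. In GENCODE 29 transcripts matched to the table's identifiers (the longest per gene), 7 of 9 members had at least 1 AUG in the 5′ leader, against 52.8% of 13036 tested genes. ATF4 had 7 in a leader of 882 bases, DDIT3 4 in 268 bases, and PPP1R15A 2 in 269 bases, while DDIT4 and PSAT1 had 0. For CHAC1 no transcript matched. Carriers were found on both sides, as TRIB3 with 3, PHGDH with 3 and ASNS with 2 fell and SESN2 with 1 rose.

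Upstream of ATF4, 12 of 19 genes around eIF2 were called lower and 1 higher, with a median difference of -0.38. These are 63.2% and 5.26% of the list, beside 39% and 30.9% of all tested genes, whose median was -0.04. The 19 are eIF2, its kinases, its exchange factor eIF2B, its phosphatases and the regulators GCN1, IMPACT and DNAJC3. Of the 4 kinases, EIF2AK3 (PERK) was called lower, at 5.75 FPKM in persister cells and 8.25 FPKM in parental cells, while EIF2AK1, EIF2AK2 and EIF2AK4 were not called. IMPACT, which restrains the kinase GCN2, was the 1 called higher, at 16.8 FPKM in persister cells and 13.4 FPKM in parental cells. The eIF2B subunit gene EIF2B3 was at 5.60 FPKM in persister cells and 13.0 FPKM in parental cells, and EIF2S1, which encodes the phosphorylated subunit of eIF2, at 17.2 FPKM in persister cells and 25.8 FPKM in parental cells. With equal FPKM sums, 10 were lower and 3 higher, and the median was -0.05. Of all tested genes, 31.5% were then lower and 38.3% higher.

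Partners and regulators of ATF4 moved both ways, with 4 of 14 tested genes called higher, 4 lower and a median of 0.02. Each count is 28.6% of the list, beside 30.9% of all tested genes called higher and 39% lower. NUPR1, a small stress-induced chromatin protein, was at 285 FPKM in persister cells and 168 FPKM in parental cells, above ATF4 itself in persister cells. TRIB1 was at 23.2 FPKM in persister cells and 15.7 FPKM in parental cells, opposite in direction to its relative TRIB3. TRIB2 fell as TRIB3 did, to 1.40 FPKM in persister cells against 2.27 FPKM in parental cells. ATF5, a paralog of ATF4 that is also under translational control, was at 17.7 FPKM in persister cells and 28.8 FPKM in parental cells, and CEBPA at 7.45 FPKM in persister cells and 11.6 FPKM in parental cells.

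Among 47 tested genes of 53 in the lists of other ATF4 targets, 29 (61.7%) were called lower and 9 (19.1%) higher. Of all tested genes, 39% were called lower and 30.9% higher. The median of the 47 was -0.29 as deposited. With equal FPKM sums, 23 were lower and 15 higher, and the median turned to 0.04. Of all tested genes, 31.5% were then lower and 38.3% higher. The median of genes with at least 1 FPKM in both groups was then 0.20, above that of the 47. Enzymes were mostly lower, as ASNS, PSAT1 and PHGDH were: of 15 for amino acid and one-carbon metabolism, 12 were lower and 2 higher, with a median of -0.63. PYCR1, which makes proline, was at 45.9 FPKM in persister cells and 139 FPKM in parental cells. MTHFD2, a mitochondrial folate enzyme, was at 40.4 FPKM in persister cells and 80.1 FPKM in parental cells. MTHFD1L was at 2.75 FPKM in persister cells and 6.66 FPKM in parental cells, and the cytosolic folate enzyme MTHFD1 at 11.2 FPKM in persister cells and 23.8 FPKM in parental cells. With equal FPKM sums, 11 of these enzymes were lower and 3 higher.

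Of 10 tested genes for tRNA charging and export, 7 were called lower and 0 higher, with a median of -0.29. Among all tested genes, 39% were called lower and 30.9% higher. GARS was at 76.0 FPKM in persister cells and 121 FPKM in parental cells, WARS at 11.9 FPKM in persister cells and 19.2 FPKM in parental cells, and the tRNA exporter XPOT at 41.2 FPKM in persister cells and 57.7 FPKM in parental cells. IARS, TARS and YARS had a q-value of 1 at levels well above 1 FPKM and were taken as not tested. Of the 10 tested genes, 4 were lower and 3 higher with equal FPKM sums, and the median turned to 0.06. Of all tested genes, 31.5% were then lower and 38.3% higher, and the median gene with at least 1 FPKM in both groups was at 0.20.

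Amino acid transporters were mixed, with 4 of 9 tested genes called lower, 2 higher and a median of 0.04. These shares, 44.4% and 22.2%, stand beside 39% and 30.9% of all tested genes. The glutamine carrier gene SLC1A5 fell to 48.1 FPKM in persister cells, against 163 FPKM in parental cells, and SLC1A4 to 16.8 FPKM in persister cells, against 34.3 FPKM in parental cells. The starvation-induced carrier gene SLC38A2 was at 67.8 FPKM in persister cells and 52.4 FPKM in parental cells, and the glycine transporter gene SLC6A9 at 8.16 FPKM in persister cells and 6.40 FPKM in parental cells. With equal FPKM sums, 3 were lower and 3 higher, beside 31.5% and 38.3% of all tested genes.

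Secreted and stress targets were split as well, with 6 of 13 called lower, 5 higher and a median of 0.04. Their shares, 46.2% and 38.5%, were not far from the 39% and 30.9% of all tested genes. GDF15, a stress cytokine, was at 2.93 FPKM in persister cells and 38.1 FPKM in parental cells, a difference of -3.31, the lowest of any gene in the lists. The proapoptotic BBC3 (PUMA) was at 17.4 FPKM in persister cells and 8.61 FPKM in parental cells, and the secreted glycoprotein gene STC2 at 19.2 FPKM in persister cells and 9.73 FPKM in parental cells. The growth arrest gene GADD45A was at 9.69 FPKM in persister cells and 17.0 FPKM in parental cells. With equal FPKM sums, 5 of this list were lower and 6 higher, beside 31.5% and 38.3% of all tested genes.

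Genes in the arms of the unfolded protein response outside ATF4 were mostly lower, with 10 of 16 called lower, 3 higher and a median of -0.37. These are 62.5% and 18.8% of the list, beside 39% and 30.9% of all tested genes. The 3 called higher were ERN1, ATF6 and DNAJB9. They were at 2.05, 15.0 and 10.4 FPKM in persister cells against 1.35, 11.1 and 7.71 FPKM in parental cells. With equal FPKM sums, 10 of this list were lower and 3 higher, and the median was -0.02. Of all tested genes, 31.5% were then lower and 38.3% higher, and the median gene with at least 1 FPKM in both groups was at 0.20. XBP1 was at 282 FPKM in persister cells and 643 FPKM in parental cells, SDF2L1 at 11.7 FPKM in persister cells and 27.5 FPKM in parental cells, and the chaperone genes DNAJB11 and PDIA4 at 25.6 and 44.6 FPKM in persister cells against 46.4 and 75.3 FPKM in parental cells. The list for mTORC1 restraint beside DDIT4 and SESN2 held 4 of 9 tested genes called higher and 2 lower, with a median of 0.08. These are 44.4% and 22.2%, beside 30.9% and 39% of all tested genes. TSC1, through whose complex DDIT4 acts, was at 26.3 FPKM in persister cells and 8.35 FPKM in parental cells, and its partner TSC2 at 15.1 FPKM in persister cells and 11.7 FPKM in parental cells. The mTOR inhibitor gene DEPTOR was at 42.8 FPKM in persister cells and 21.2 FPKM in parental cells, and AKT1S1, which encodes the mTORC1 inhibitor PRAS40, at 35.9 FPKM in persister cells and 52.9 FPKM in parental cells. With equal FPKM sums, 5 were higher and 1 lower, beside 38.3% and 31.5% of all tested genes. Differences between these lists were not tested.

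**Figure D4:**
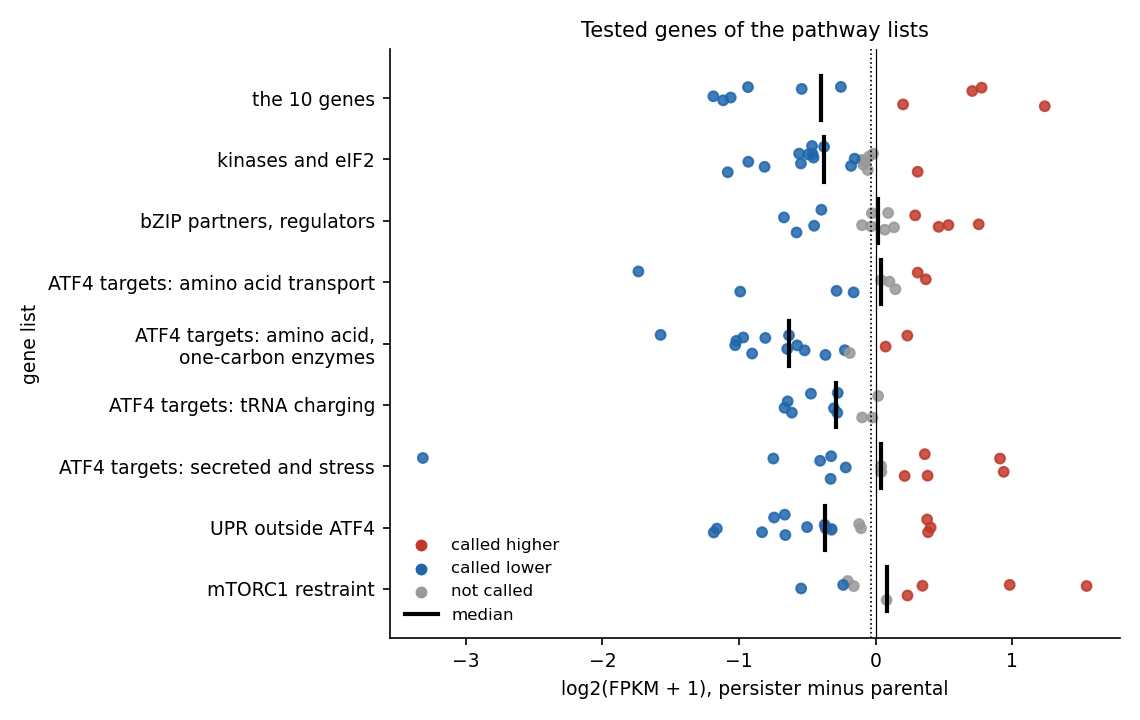
Difference in log2(FPKM + 1), persister minus parental, for each tested gene of the 10 and of 8 pathway lists, coloured by call, with list medians (black bars), 0 (thin line) and the median of all tested genes (dotted, -0.04). As deposited, the enzyme list has the lowest median (-0.63) and the list of mTORC1 restraint the highest (0.08). That top rank depends on scaling: with equal FPKM sums this list is at 0.34 and amino acid transport at 0.40. GDF15 is the point at -3.31.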

How the data were processed

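Per the submitters' processing notes, the tools were Cuffdiff 2.0.2 with Cufflinks, TopHat2 2.0.6 and CASAVA 1.8, on the build hg18, and no settings are given in the sources used here. The authors deposited 1 FPKM value per gene and group (3 persister and 2 parental libraries combined), so no count, depth, SD or interval could be had. The q-value deposited by the authors is an adjusted p of their own comparison across all genes; 2712 rows have it at 0, and the smallest above 0 is 1.2e-15. Per the labels' protocols, the library kit did not keep strand.

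The table's 18803 rows held 18512 symbols after 25 of 26 spreadsheet dates were replaced through transcript identifiers (RefSeq, GRCh38.p14); of several rows of a symbol, the one with the highest mean FPKM was used. Genes with a q-value below 1 counted as tested, and a pseudocount of 1 was added to FPKM before taking log2. The test planned for values per library could not be made. The computations used Python 3.11.15 and pandas 2.3.3. The calling step was run on simulated group values with q-values set beforehand, which checks the code and not the reliability of the calls.

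The 10 genes and the 9 lists (114 genes, 7 in more than 1 list) were chosen with earlier results of these data known. Named genes were the 10, their relatives, fixed cell type markers and, per list, up to 4 called genes with the largest difference. The untested tRNA synthetases, IMPACT, GCN1, DNAJC3, PPP1CB, the eIF2 kinases, ERN1, ATF6 and DNAJB9 were named after their values were seen. Cuffdiff's test is the only one that saw replicates, and its p-values refer to these libraries only. How they use the spread between the libraries is not known without its settings. Alternatives covered the pseudocount, scaling, q threshold, size of difference, minimum FPKM and repeated symbols.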

Additional observations from a re-analysis of the deposited data

How the results depend on the processing

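No paired analysis was possible because the table holds no values per library, and for the same reason no replicate could be left out. Over the 8 alternatives, 72 of 80 values of the 10 genes kept direction and call. Most of these could not have turned, so the count is no measure of robustness. Only the scalings can change a direction, and only the thresholds can remove a call. Each of the 10 genes had 1 row, so summing the rows of a symbol changed nothing. ATF4 alone turned, to 0.10 with equal FPKM sums. SESN2 was no longer called with a q-value under 0.01. With a difference of at least 1 required, 4 of the 10 genes were called (1 higher, 3 lower) in place of 10, 10 list genes in place of 79, and 1225 of all tested genes in place of 9514. The list counts and medians with equal FPKM sums and equal upper quartiles were added after seeing the data. Call counts rest on the authors' q-values, which no scaling here recomputes. Depth is unknown, so what low genes such as CHAC1 or SESN3 could show is not known.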
